A study of Arabidopsis thaliana with 36 samples.

Results

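The data describe the first steps of cytokinin signalling in ageing Arabidopsis thaliana leaves, through 9 genes listed by locus and found among the 33279 loci of the deposited table. They are the 3 hormone receptors AHK2, AHK3 and AHK4, the 5 phosphotransfer proteins AHP1 to AHP5, and the transcription factor CRF6. The list rests on gene identity and not on a cut-off in the measured values, but it was chosen with earlier results of these data known. All 9 were measured and all 9 passed the filter on low values, which left 18729 genes.

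The plants were Col-0, the standard laboratory accession, with no transgene or treatment named. Leaves were taken 21 or 35 days after sowing (DAS) at 6 times of day, given as ZT (hours since lights on). They came from long days of 16 h light and 8 h dark, with white light of 100 µmol per square metre and second, at 22 °C. According to the labels these were 3rd and 4th rosette leaves, according to the series text the third leaf, and neither says whether leaves of several plants were pooled. Lights went off at ZT16, so ZT1, ZT5, ZT9 and ZT13 were in the light and ZT17 and ZT21 in the dark. Age and time give 12 groups, each with 3 libraries of polyadenylated RNA, 18 per age. Sample titles number them as batches, and the series text calls them biological replicates without saying that they came from separate plants, so p-values measure the spread between these samples, which may be technical. Levels are FPKM (fragments scaled to transcript length and library total), summed over the transcripts of a gene, and being per length they can be compared between genes.

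Library sums of FPKM ran from 829518 to 952310. The absolute depth is not stated in the table, and relative depths read from the steps between low values ran from 0.774 to 1.54. These relative depths are rough, as whole reads were not recovered from the steps. The locus AT2G01021 stood out in 4 libraries, at 27856 to 74542 FPKM. The 4 are replicate 1 of ZT17 at 21 DAS, replicate 2 of ZT13 at 35 DAS, and replicate 3 of ZT17 and of ZT21 at 35 DAS. Mesophyll markers, such as the Rubisco small subunit RBCS1A, summed to 25679 to 61509.7 FPKM at 21 DAS and 4315 to 37748 FPKM at 35 DAS. Flower markers summed to at most 4.11 FPKM in any library, with the defining AP1 and AP3 under a mean of 0.1 FPKM at both ages. Root markers summed to 14.4 to 68.0 FPKM at 21 DAS and 16.2 to 40.8 FPKM at 35 DAS, with the stem cell gene WOX5 under a mean of 0.1 FPKM, SCR at 22.0 and 18.0 FPKM and SHR at 7.21 and 6.77 FPKM on average at the 2 ages.

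Cytokinins are adenine-derived hormones that promote cell division and delay leaf senescence. The AHK proteins are membrane histidine kinases that phosphorylate themselves on binding cytokinin, and the AHP proteins carry the phosphate to response regulators in the nucleus. Type-B response regulators then activate target genes, type-A response regulators are rapidly induced targets that damp the signal, and cytokinin response factors (CRF) are AP2-type transcription factors that form a side branch of the pathway.

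The promoters of 3 genes are shown because these genes had the largest differences between ages, AHP4 and CRF6 upward and AHK4 downward. Each is the 250 bases before the outermost start annotated, from the RefSeq TAIR10.1 genome, on the strand of the gene. They are chr3:5553947-5554196 (plus strand) for AHP4, chr3:22804748-22804997 (plus strand) for CRF6 and chr2:369708-369957 (minus strand) for AHK4. Capitals mark matches on either strand to any of 5 motifs searched: the G-box CACGTG, the W-box core TTGAC, the type-B response regulator core AGATT, the evening element AAATATCT and the CCA1-binding site AAAAATCT, whose end is the reverse complement of AGATT.
AHP4: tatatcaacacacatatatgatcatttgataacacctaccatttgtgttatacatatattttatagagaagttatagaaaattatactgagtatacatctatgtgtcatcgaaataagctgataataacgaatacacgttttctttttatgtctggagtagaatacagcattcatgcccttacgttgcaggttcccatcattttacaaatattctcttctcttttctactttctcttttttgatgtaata
CRF6: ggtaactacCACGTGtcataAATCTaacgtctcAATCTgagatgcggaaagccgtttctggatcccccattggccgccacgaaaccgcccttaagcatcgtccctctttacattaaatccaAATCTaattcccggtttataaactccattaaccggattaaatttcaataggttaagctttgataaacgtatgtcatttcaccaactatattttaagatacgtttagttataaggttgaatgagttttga
AHK4: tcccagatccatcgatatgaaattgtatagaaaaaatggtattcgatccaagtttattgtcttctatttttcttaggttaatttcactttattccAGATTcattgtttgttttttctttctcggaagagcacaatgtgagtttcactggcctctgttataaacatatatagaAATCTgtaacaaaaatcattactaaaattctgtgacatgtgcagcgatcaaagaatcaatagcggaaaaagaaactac

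The AHP4 window held none of the 5 motifs. The CRF6 window held 1 G-box, 241 bases before the start, and 3 copies of AGATT on the minus strand, and the AHK4 window held 2 copies of AGATT. Over the 9 genes, AGATT was found in 5 (AHK4, AHP1, AHP3, AHP5 and CRF6), CACGTG in 1 (CRF6), TTGAC in 1 (AHP3), and the other motifs in 0. Of 30686 promoters of the same length, 63.3% held AGATT, 5.97% CACGTG, 44.6% TTGAC, 4.57% AAATATCT and 6.42% AAAAATCT. The short core is thus present in most promoters, and a match is a description of letters only.

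Averaged over the 6 times, 5 of the 9 genes rose from 21 to 35 DAS (AHK3, AHP3, AHP4, AHP5 and CRF6), 3 fell (AHK2, AHK4 and AHP1) and AHP2 was not called. The test was limma on log2(FPKM + 1) over all 36 libraries, with a call at a Benjamini-Hochberg adjusted p under 0.05 over all genes. By the same test 87.7% of all genes were called, 64.5% higher and 23.2% lower, so the number of calls among the 9 is near the background. The sizes differ more than the calls do. AHP4 had the 3rd highest age effect of the 18729 genes and CRF6 the 292nd. AHP4 lay near 0 at 21 DAS and passed the filter only through 35 DAS, so its rank is a description. The median age effect over all genes was 0.39 as deposited and 0.04 after median-of-ratios rescaling, and each effect below is to be read against that shift. After rescaling, the same 5 genes rose and 4 fell, AHP2 being the added one (background 80.9% called, 42.5% higher and 38.4% lower). At single times, the 9 genes gave 5, 6, 5, 5, 5 and 5 calls higher and 3, 1, 3, 3, 4 and 2 calls lower at ZT1, ZT5, ZT9, ZT13, ZT17 and ZT21. In the same order, 53.2%, 48.3%, 52.2%, 39.7%, 46.0% and 53.0% of all genes were called higher and 17.3%, 15.2%, 17.7%, 18.0%, 18.5% and 18.4% lower, and after rescaling 60.1%, 50.6%, 57.2%, 51.8%, 54.9% and 57.5% were called in either direction. In bulk leaf samples, a change in the number of cells of a type and a change in RNA per cell cannot be told apart.

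**Figure D1:**
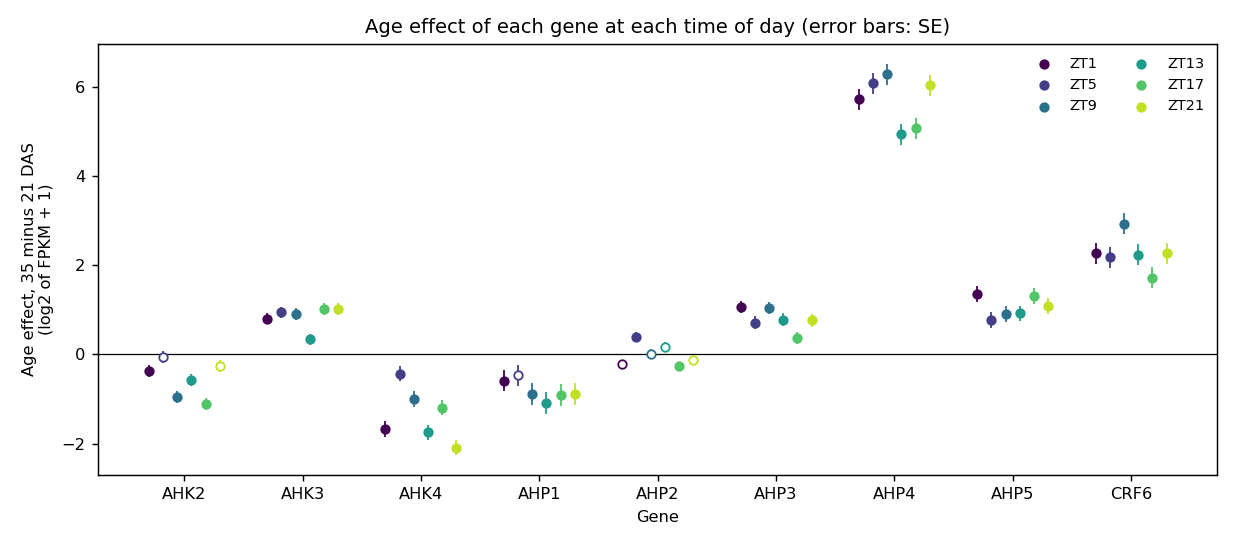
Age effect of the 9 genes at each time of day: the vertical axis is 35 minus 21 DAS in log2(FPKM + 1), each point is 1 time of day, error bars are the SE, and filled points passed the limma test. AHP4 lies between 4.94 and 6.29 and CRF6 between 1.72 and 2.93, AHK2, AHK4 and AHP1 lie below 0 at all 6 times, and AHP2 is scattered about 0.

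Among the receptors, AHK3 rose and AHK4 and AHK2 fell. AHK3 (AT1G27320, TAIR10 chromosome 1, 9487780 to 9492572), the receptor known for delaying leaf senescence, had a lowest, median and highest level of 22.1, 28.2 and 32.2 FPKM at 21 DAS and 35.4, 51.9 and 67.2 FPKM at 35 DAS. Every library of 35 DAS was thus above every library of 21 DAS, which holds for 7.56% of all genes (3.75% in the opposite direction). The mean rose 1.84-fold, from 27.9 ± 3.119 to 51.2 ± 9.64 FPKM (SD, n = 18 per age). This gave an age effect of 0.84 ± 0.05 (SE, limma, adjusted p = 9.52e-15), and 0.43 after rescaling. It was called at all 6 times (25.7% of all genes were called higher at all 6), from 0.34 at ZT13 to 1.02 at ZT21. The 3 libraries of ZT13 were at 32.2, 30.4 and 31.0 FPKM at 21 DAS and at 38.3, 46.4 and 35.4 FPKM at 35 DAS, which do not overlap. It was 0.39 without replicate 1, 0.21 without replicate 2, 0.23 without the 4 libraries with AT2G01021, 0.34 with only the groups compared, 0.29 with array weights and 0.10 after rescaling, and in each of these cases ZT13 was not called.

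AHK4 (AT2G01830, chromosome 2, 362983 to 369707), the receptor first found through the root vascular mutant wooden leg, fell 4.05-fold. Its lowest, median and highest levels were 1.84, 4.95 and 12.1 FPKM at 21 DAS and 0.877, 1.23 and 2.65 FPKM at 35 DAS. The ages overlapped when all times were joined, and at each of the 6 times the 3 libraries of 35 DAS were below the 3 of 21 DAS. How many of all genes show no overlap at single times was not counted, here or for the other genes. Overlaps were read from FPKM as deposited and were not checked after rescaling. The means were 5.78 ± 3.25 and 1.43 ± 0.479 FPKM (SD, n = 18), and the age effect was −1.35 ± 0.07 (SE, limma, adjusted p = 1.89e-16; −1.64 after rescaling). It fell at all 6 times (8.65% of all genes were called lower at all 6), from −0.43 at ZT5 to −2.09 at ZT21, and at ZT5 it was not called when replicate 1 (−0.33) or replicate 2 (−0.37) was left out.

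The wide range of AHK4 at 21 DAS followed the time of day. The 3 libraries were at 2.20, 2.25 and 1.84 FPKM at ZT5, at 7.67, 7.40 and 7.93 FPKM at ZT13, and at 12.1, 12.1 and 10.49 FPKM at ZT21. At ZT17, between these, they were at 5.23, 3.08 and 4.66 FPKM, so the profile had a first maximum at the end of the light and a second, higher one late in the dark. At 35 DAS the lowest mean was 0.916 FPKM (ZT1) and the highest 1.99 FPKM (ZT21), where the libraries were at 1.52, 2.65 and 1.79 FPKM. The highest mean was 5.52 times the lowest at 21 DAS and 2.17 times at 35 DAS.

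AHK2 (AT5G35750, chromosome 5, 13911371 to 13916337), a receptor that acts redundantly with AHK3 in shoots, fell 1.58-fold, from 7.12 ± 2.42 to 4.50 ± 1.55 FPKM (SD, n = 18). Its lowest, median and highest levels were 3.67, 6.56 and 12.9 FPKM at 21 DAS and 2.73, 4.27 and 7.61 FPKM at 35 DAS, which overlap. On the log2 scale AHK2 differed by −0.56 ± 0.06 (SE, limma, adjusted p = 4.08e-10; −0.91 after rescaling). It was called lower at ZT1, ZT9, ZT13 and ZT17 and not at ZT5 (−0.06 ± 0.14) or ZT21 (−0.26 ± 0.14), and after rescaling it was called at ZT5 (−0.43) and ZT21 (−0.66) as well. At ZT21, where the 3 libraries of 35 DAS were below the 3 of 21 DAS, it was also called with array weights (−0.27). ZT1 was no longer called without replicate 2 (−0.30), without replicate 3 (−0.38) or with only the groups compared (−0.37), nor ZT13 without replicate 3 (−0.49).

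The maximum of AHK2 lay at different times at the 2 ages. At 21 DAS the highest mean was at ZT17, where the libraries were at 11.1, 11.03 and 12.9 FPKM. At 35 DAS they were at 6.26, 4.33 and 4.21 FPKM at that time, and the highest mean was instead at ZT5, with 6.63, 7.34 and 7.61 FPKM against 7.68, 7.62 and 7.25 FPKM at 21 DAS. The highest mean thus lay in the dark at 21 DAS and in the light at 35 DAS.

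**Figure D2:**
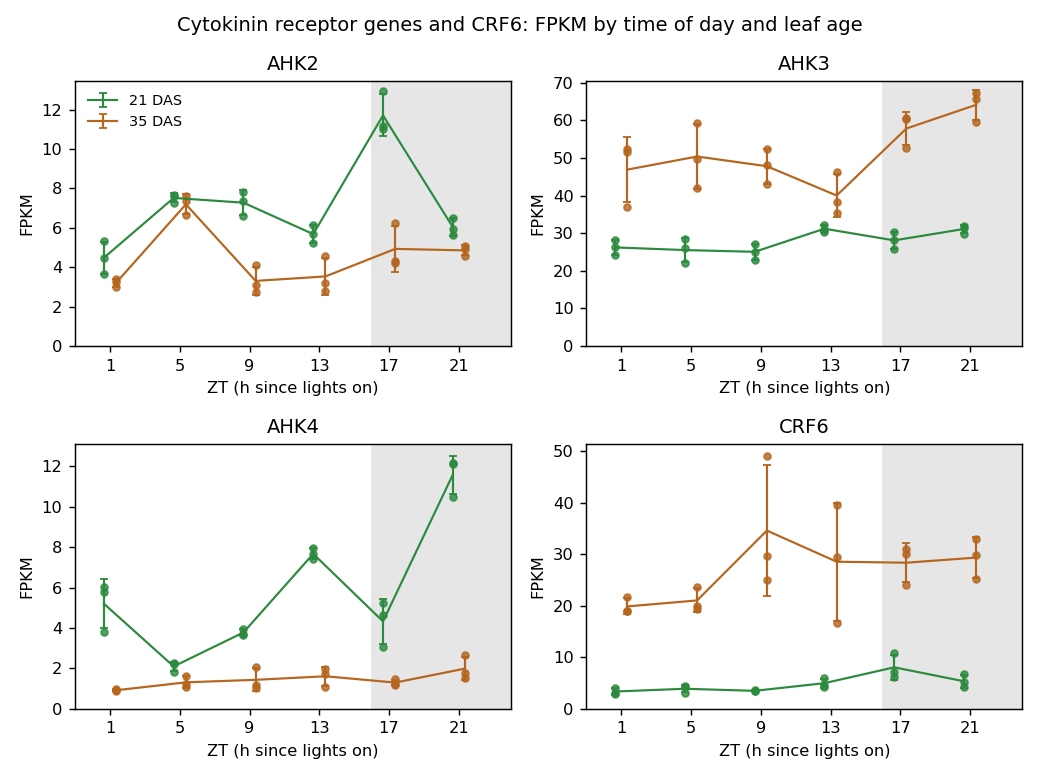
FPKM of the 3 receptor genes and CRF6 against ZT (h since lights on; grey marks the dark): points are libraries, lines join the means of 3 libraries, error bars are the SD, green is 21 DAS and brown 35 DAS. The mean of AHK4 reaches 11.6 FPKM at ZT21 at 21 DAS and 1.99 FPKM at ZT21 at 35 DAS, while AHK3 and CRF6 of 35 DAS lie above all libraries of 21 DAS.

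AHK3 had the highest level of the 3 receptors in all 36 libraries. The order of the other 2 depended on time and age. AHK4 was above AHK2 in 8 of 18 libraries at 21 DAS, among them all 3 of ZT13 and all 3 of ZT21, and below it in all libraries of ZT5, ZT9 and ZT17. At 35 DAS AHK4 was below AHK2 in 18 of 18 libraries. Taking the summed FPKM of the 3 receptors in each library as 100%, which makes the value independent of scaling between libraries, AHK3 held 68.7% ± 4.23 at 21 DAS and 89.6% ± 2.39 at 35 DAS (SD, n = 18). The libraries ran from 61.7% to 75.8% and from 84.5% to 93.0%, which do not overlap. The difference of 20.9 percentage points had p = 1e-05, the smallest that 100000 permutations can give (two-sided permutation test of ages within times; 1.43e-05 after Benjamini-Hochberg adjustment over 10 tests of shares and sums).

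AHK2 went from 17.6% ± 5.82 to 7.88% ± 2.32 of the receptor sum and AHK4 from 13.6% ± 6.12 to 2.52% ± 0.819 (SD, n = 18; permutation p = 1e-05 for each, adjusted 1.43e-05). As the shares have a fixed sum, these falls and the gain of AHK3 are not independent results. The levels of AHK2 and AHK4 fell as well, as given above. The share of AHK4 was 23.7% at ZT21 and 6.02% at ZT5 at 21 DAS, and between 1.83% and 3.56% at all times at 35 DAS. The receptor sum itself rose from 40.8 ± 5.79 to 57.1 ± 10.6 FPKM (SD, n = 18; permutation p = 3e-05, adjusted 3.75e-05), AHK3 being the 1 receptor that rose. Unlike the shares, this sum depends on scaling between libraries and was tested only as deposited. As deposited, the median age effect over all genes was 0.39 on the log2 scale, and how much of the rise in the sum remains after rescaling was not tested.

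The AHK4 locus has 3 transcripts in the table. At 21 DAS AT2G01830.2 held 60.7% of the locus, AT2G01830.1 24.8% and AT2G01830.3 14.5%, and at 35 DAS they held 47.7%, 46.2% and 6.04%. These are estimates that split shared reads, and they varied widely between libraries: AT2G01830.2 ran from 6.14e-06 to 8.30 FPKM at 21 DAS. Changes of single transcripts are given here as values only.

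Among the 5 phosphotransfer genes, AHP4, AHP5 and AHP3 rose, AHP1 fell and AHP2 was not called over all times. AHP4 (AT3G16360, chromosome 3, 5554258 to 5555603) is the family member known for a minor role in cytokinin response beside the other AHP proteins. At 21 DAS it was listed at 0 in 4 of 18 libraries, with a median of 0.250 and a highest value of 1.16 FPKM. At 35 DAS its lowest, median and highest levels were 32.6, 67.1 and 107 FPKM. No library of 35 DAS overlapped with one of 21 DAS, and the lowest of the older leaves was above the highest of the younger ones at every time. Over all genes, 7.56% had no overlap in this direction with all times joined.

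The mean of AHP4 was 0.330 ± 0.337 FPKM at 21 DAS and 69.4 ± 22.7 FPKM at 35 DAS (SD, n = 18), and no ratio is given because the 21 DAS level lies near 0. The age effect was 5.69 ± 0.10 on the log2(FPKM + 1) scale (SE, limma, adjusted p = 2.66e-26; 5.44 after rescaling). That scale compresses a rise from near 0, and with an added 0.1 in place of 1 the effect was 7.66. It was called at all 6 times, from 4.94 at ZT13 to 6.29 at ZT9.

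Within 35 DAS, AHP4 was lowest at ZT13, with 32.6, 50.3 and 45.5 FPKM, and highest at ZT9, with 68.9, 93.2 and 107 FPKM. The spread was widest at ZT21, with 102, 45.2 and 90.5 FPKM. At 21 DAS the values above 1 FPKM were both at ZT17 (1.10, 0.372 and 1.16 FPKM). All of the 35 DAS level was assigned to transcript AT3G16360.2 (mean 69.4 FPKM), while AT3G16360.1 was at most 0.000149 FPKM in any of the 18 libraries. The RefSeq annotation places a long noncoding RNA, AT3G03295, on the opposite strand over the 3′ end of AHP4. Whether reads were counted by strand is not given in the sources used here, so reads of that locus could not be told apart from those of AHP4.

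AHP5 (AT1G03430, chromosome 1, 847873 to 849500), one of the positive relay proteins that act redundantly, rose from 22.4 ± 6.196 to 47.2 ± 9.96 FPKM (SD, n = 18). Its lowest, median and highest levels were 11.2, 23.1 and 33.4 FPKM at 21 DAS and 26.0, 47.7 and 71.7 FPKM at 35 DAS. The ages overlapped over all times and did not overlap at any single time, which was not counted over all genes. Its age effect of 1.06 ± 0.07 (SE, limma, adjusted p = 9.16e-14; 0.65 after rescaling) was called at all 6 times, from 0.78 at ZT5 to 1.35 at ZT1. After rescaling the call at ZT5 was lost (0.37).

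AHP3 (AT5G39340, chromosome 5, 15748851 to 15750507), another positive relay protein, rose 1.73-fold, from 36.5 ± 8.77 to 63.2 ± 11.9 FPKM (SD, n = 18). Its lowest, median and highest levels were 23.6, 36.8 and 56.7 FPKM at 21 DAS and 41.7, 62.9 and 81.0 FPKM at 35 DAS, again with no overlap at any single time (not counted over all genes). The age effect was 0.79 ± 0.06 (SE, limma, adjusted p = 4.51e-13; 0.38 after rescaling), called at all 6 times. It was smallest at ZT17 (0.37), where the libraries were at 56.7, 46.2 and 48.3 FPKM at 21 DAS and at 67.5, 63.4 and 64.0 FPKM at 35 DAS. ZT17 was not called without replicate 2 (0.32), without replicate 3 (0.35) or after rescaling (0.02), and rescaling also ended the calls at ZT5 (0.30) and ZT21 (0.29). In the RefSeq annotation, where AHP3 reaches past the TAIR10 end given above, the neighbouring gene AT5G39350 overlaps its end on the same strand, at 1.44 and 1.65 FPKM on average at the 2 ages.

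AHP1 (AT3G21510, chromosome 3, 7578175 to 7579599), also a positive relay protein, fell 1.81-fold, from 9.52 ± 1.60 to 5.26 ± 2.20 FPKM (SD, n = 18). Its lowest, median and highest levels were 6.196, 9.68 and 11.8 FPKM at 21 DAS and 2.86, 4.56 and 11.4 FPKM at 35 DAS. The highest 35 DAS value was at ZT5, where the libraries were at 5.11, 11.4 and 7.97 FPKM and overlapped with those of 21 DAS, at 11.8, 10.7 and 11.04 FPKM. Its age effect of −0.80 ± 0.10 (SE, limma, adjusted p = 1.76e-08; −1.16 after rescaling) was called lower at every time but ZT5 (−0.47 ± 0.24). At ZT5 it was called without replicate 2 (−0.75), without the 4 libraries with AT2G01021 (−0.47) and after rescaling (−0.86), and at ZT1 the call was lost without replicate 1 (−0.40), without replicate 3 (−0.58), with array weights (−0.34) and with only the groups compared (−0.59).

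AHP2 (AT3G29350, chromosome 3, 11264147 to 11265532), a positive relay protein too, was at 44.9 ± 6.23 FPKM at 21 DAS and 45.8 ± 12.9 FPKM at 35 DAS (SD, n = 18). The age effect was −0.01 ± 0.04 (SE, limma, adjusted p = 0.888) as deposited, and after rescaling AHP2 was called lower at −0.42. At ZT5 the libraries were at 56.7, 50.1 and 50.6 FPKM at 21 DAS and at 71.7, 70.1 and 66.8 FPKM at 35 DAS, with no overlap. That difference was called higher as deposited (0.40 ± 0.11, limma, adjusted p = 0.00196) and had the opposite sign, without a call, after rescaling (−0.01). Rescaling also made AHP2 lower at ZT1 (−0.75), ZT9 (−0.46) and ZT21 (−0.60), times at which it was not called as deposited. At ZT17 it was called lower (−0.27 ± 0.11, limma, adjusted p = 0.0301), and the value was −0.03 when replicate 2 was left out, whose 21 DAS library was at 55.8 FPKM against 41.3 and 41.9 FPKM. The ZT17 call was also lost with only the groups compared (limma adjusted p = 0.172), and with array weights AHP2 was called lower at ZT1 (−0.26). Transcript AT3G29350.1 held 97.5% and 98.2% of the locus at the 2 ages.

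**Figure D3:**
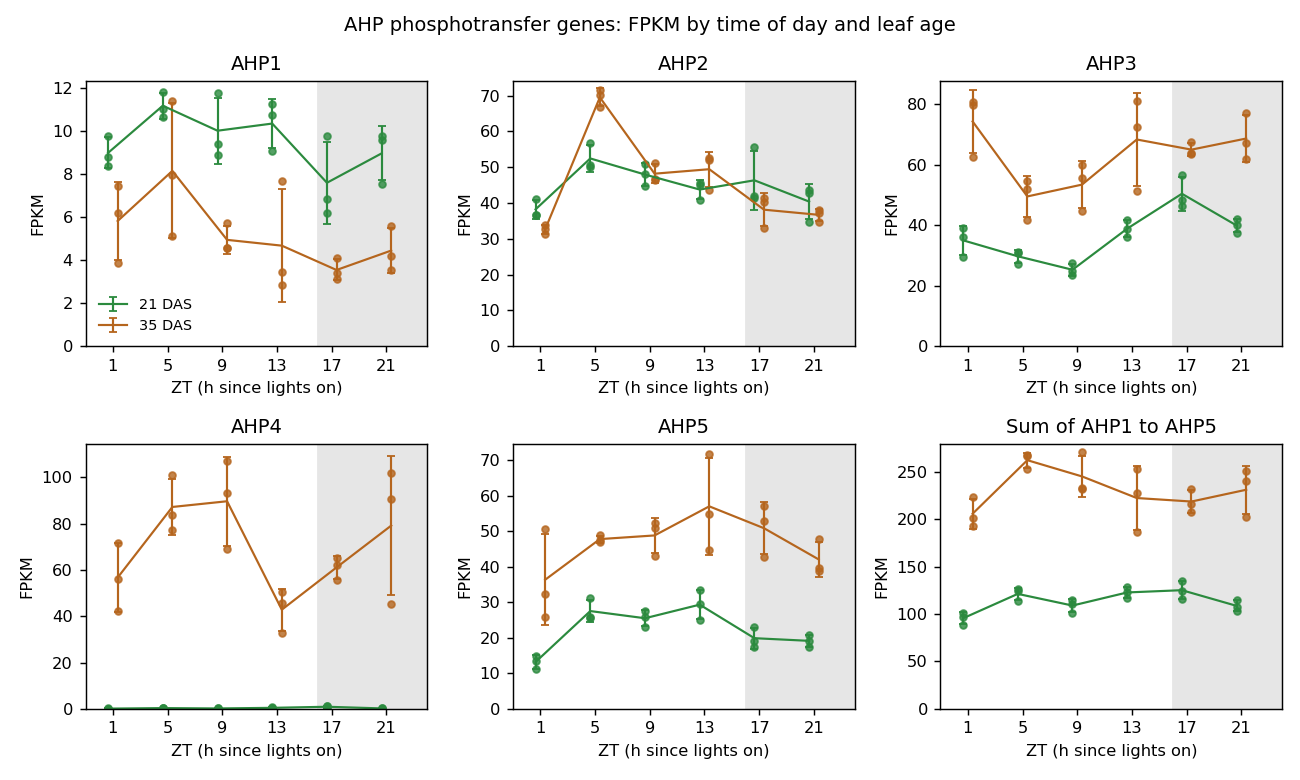
FPKM of AHP1 to AHP5 and of their sum against ZT (h since lights on; grey marks the dark): points are libraries, lines join the means of 3 libraries, error bars are the SD, green is 21 DAS and brown 35 DAS. AHP4 is at most 1.16 FPKM at 21 DAS and at least 32.6 FPKM at 35 DAS, and AHP2 peaks at ZT5 at both ages.

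The order within the family differed between the ages. At 21 DAS AHP2 had the highest level in 14 libraries and AHP3 in the other 4, and AHP4 the lowest in all 18. At 35 DAS AHP4 had the highest level in 9 libraries, AHP3 in 8 and AHP5 in 1. AHP4 was above AHP3 in every library of ZT5 and ZT9 and below it in every library of ZT1 and ZT13, so these neighbours did not keep 1 order over the day. AHP1 was below AHP4 in all 18 libraries of 35 DAS.

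As a share of the summed FPKM of AHP1 to AHP5 in each library, AHP4 went from 0.281% ± 0.281 to 29.6% ± 7.47 (SD, n = 18), with libraries from 0% to 1.00% and from 17.5% to 40.6%. The difference was 29.3 percentage points (two-sided permutation test of ages within times, p = 1e-05, adjusted 1.43e-05 over the 10 tests). AHP2 went from 39.5% ± 3.90 to 19.7% ± 4.24 and AHP1 from 8.44% ± 1.44 to 2.26% ± 0.823, with the same permutation p for each. AHP3 went from 32.2% ± 7.09 to 27.9% ± 6.71 (permutation p = 0.00111, adjusted 0.00123), although its level had risen. AHP5 held 19.6% ± 4.37 and 20.6% ± 4.51, which did not pass the permutation test (p = 0.429). The shares of a family have a fixed sum, so the gain of AHP4 by itself lowers the shares of the other genes. The tests of single shares are therefore not independent of each other, and shares among the genes other than AHP4 were not tested. The family sum rose from 114 ± 12.2 to 231 ± 26.1 FPKM (SD, n = 18; permutation p = 1e-05, adjusted 1.43e-05). Like the receptor sum, it depends on scaling between libraries and was tested only as deposited.

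**Figure D4:**
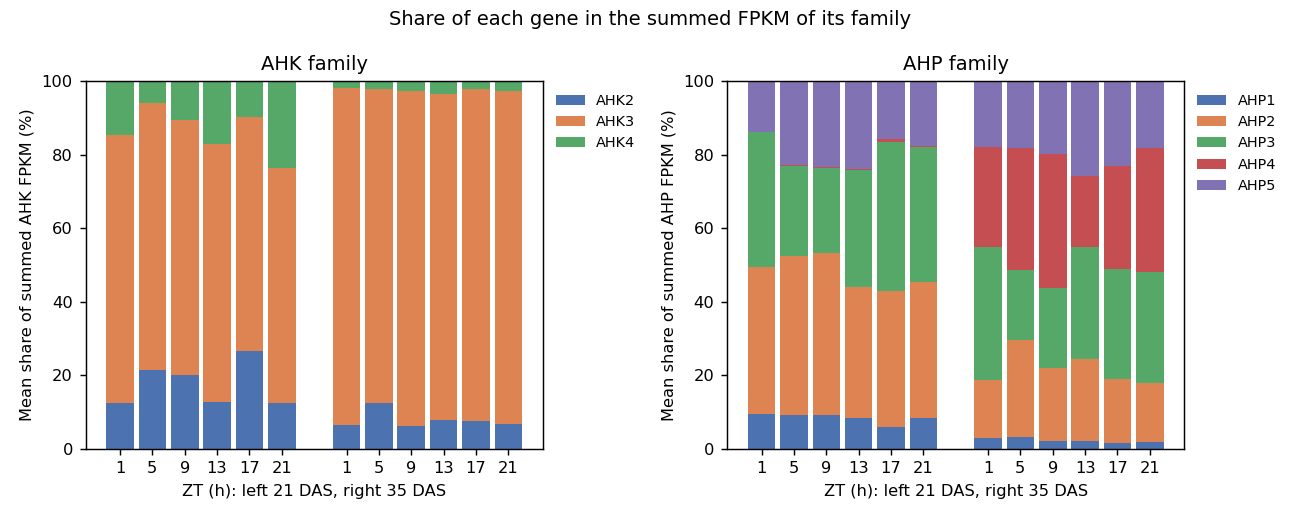
Mean share of each gene in the summed FPKM of the receptors (left) and of AHP1 to AHP5 (right), in percent, by ZT (h) with 21 DAS on the left and 35 DAS on the right of each panel; each bar is the mean of 3 libraries. AHK3 holds 63.7% to 73.0% at 21 DAS and 85.5% to 91.7% at 35 DAS, and AHP4 holds at most 0.722% at 21 DAS and 19.2% to 36.4% at 35 DAS.

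CRF6 (AT3G61630, chromosome 3, 22805180 to 22806527), a cytokinin response factor known as a negative regulator of leaf senescence and as induced by oxidative stress, rose 5.56-fold. Its lowest, median and highest levels were 2.78, 4.22 and 10.8 FPKM at 21 DAS and 16.7, 25.1 and 49.1 FPKM at 35 DAS, with no overlap (7.56% of all genes in this direction). The means were 4.84 ± 1.96 and 26.9 ± 8.13 FPKM (SD, n = 18), and the age effect was 2.27 ± 0.10 (SE, limma, adjusted p = 2.86e-18; 1.89 after rescaling). It was called at all 6 times, from 1.72 at ZT17 to 2.93 at ZT9.

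The smallest age effect of CRF6 was at the time of its maximum in young leaves, a level that enters the effect itself. As deposited, the CRF6 age effect was not called as differing between times (limma F test, adjusted p = 0.0865). At ZT17 the libraries were at 10.8, 7.21 and 6.08 FPKM at 21 DAS and at 29.99, 24.0 and 30.9 FPKM at 35 DAS. At ZT9, where the effect was largest, they were at 3.37, 3.57 and 3.51 FPKM and at 49.1, 25.0 and 29.6 FPKM. The spread at 35 DAS was wide at ZT9 and ZT13 (16.7, 39.5 and 29.4 FPKM), and replicate 1 was the highest at one of these times and the lowest at the other.

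Levels differed between the 6 times of day in 7 of the 9 genes at 21 DAS (limma F test, background 79.3%), all but AHK3 (adjusted p = 0.0809) and AHP1 (adjusted p = 0.395). With only the groups compared both were called (F 4.55 and 3.18), as were AHK3 with array weights (F 4.56) and AHP1 after rescaling (F 3.01). The call of AHP4 at 21 DAS rests on values near 0, of which 2 reached 1 FPKM, so that the gene passed the filter through its level at 35 DAS. At 35 DAS all 9 passed (background 75.0%), AHK4 and CRF6 close to the threshold (limma adjusted p = 0.0422 and 0.0491). Both lost the call after rescaling (F 1.46 for AHK4 and 1.70 for CRF6) and without a filter on low values (F 2.91 and 2.70). AHK4 lost it also without replicate 1 (F 2.09), without replicate 2 (F 2.19) and without the 4 libraries with AT2G01021 (F 2.42), and AHP3 (F 2.47) and AHP5 (F 2.72) lost it without replicate 2. CRF6 was not called with an added 0.5 (F 2.67) or 0.1 (F 2.55), and AHP4 went from F 5.97 to 1.37 with an added 0.1, without a call. With only the groups compared AHP1 (F 2.37), AHP5 (F 2.48), AHK4 (F 2.55) and CRF6 (F 2.23) were not called. Without replicate 3 only AHK2, AHK3 and AHP2 of these 9 were called, with F at 1.72 for AHP1, 2.51 for AHP3, 2.39 for AHP4, 0.67 for AHP5, 1.23 for CRF6 and 2.34 for AHK4. At 21 DAS the call of AHP2 was lost without replicate 1 (F 2.25), that of CRF6 without replicate 3 (F 3.08), and that of AHP4 without replicate 1 (F 2.05), without replicate 3 (F 1.10), without the 4 libraries with AT2G01021 (F 1.79) and without a filter on low values (F 2.82).

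AHP2 had its highest mean at ZT5 and its lowest at ZT1 at both ages, and its highest mean was 1.37 times the lowest at 21 DAS and 2.13 times at 35 DAS. AHP5 was highest at ZT13 and lowest at ZT1 at both ages, with means of 29.3 and 13.2 FPKM at 21 DAS and 57.0 and 36.4 FPKM at 35 DAS. AHP3 was highest at ZT17 (50.4 FPKM) and lowest at ZT9 (25.2 FPKM) at 21 DAS, and highest at ZT1 (74.3 FPKM) and lowest at ZT5 (49.5 FPKM) at 35 DAS.

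A daily rhythm was called when a 24-h cosine passed the F test with an amplitude of at least 0.5 on the log2 scale. At 21 DAS AHK4 alone met this (amplitude 0.63, peak at ZT18.6, limma adjusted p = 4.24e-08; background 26.8%). The fitted peak lies near ZT17, where the mean of AHK4 was 4.32 FPKM, below its means of 7.67 FPKM at ZT13 and 11.6 FPKM at ZT21, so a single cosine does not follow this profile. At 35 DAS 0 of the 9 did (limma, background 17.3%, and 15.3% after rescaling), and AHK4 had an amplitude of 0.13. The added 1 shrinks this amplitude, as the AHK4 means at 35 DAS lay between 0.916 and 1.99 FPKM, the highest 2.17 times the lowest. At an unadjusted p of 0.05 and without the amplitude, 8 of the 9 passed at 21 DAS (background 76.6%) and 7 at 35 DAS (background 67.5%), all but AHK2 and AHK4 there, with amplitudes from 0.21 to 0.40 among the 7. The 8 at 21 DAS include AHP4, whose values at that age lie near 0 (median 0.250 FPKM). It passed the filter through its level at 35 DAS, so its result at 21 DAS carries no weight. AHP1, with 0.40, was called at 35 DAS without replicate 1 (0.54), with array weights (0.56) and after rescaling (0.50).

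The age effect itself was called as differing between times in 5 of the 9 genes (age by time interaction, limma F test, background 39.7%). F was 12.3 for AHK4 (adjusted p = 7.85e-05), 8.71 for AHK2 (adjusted p = 0.000647), 5.74 for AHP2 (adjusted p = 0.00556), 5.65 for AHP4 (adjusted p = 0.00598) and 4.09 for AHK3 (adjusted p = 0.0229). Of these, AHK4 passed without any 1 replicate number. The call of AHK2 was lost without replicate 3 (F 3.04), that of AHP2 without replicate 2 (2.87) and 3 (3.02), that of AHP4 without replicate 1 (3.83) and 3 (1.92), and that of AHK3 without replicate 1 (2.14), 2 (3.31) or 3 (3.44) and after rescaling (3.29). AHP3, at F 3.23 (limma adjusted p = 0.0507), was called with either smaller pseudocount and with array weights. The AHP4 result rests in part on values near 0 in the younger leaves, with group means from 0.0753 to 0.879 FPKM. The weight of these values is set by the pseudocount, so the test does not settle whether the AHP4 age effect differed between times.

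The series title raises the question of a night-like pattern in aged plants, and the age effect at ZT17 and ZT21 was therefore compared with that at the 4 light times. It was lower at night for AHK4 (−0.43 ± 0.15, limma, adjusted p = 0.0481) and AHP2 (−0.29 ± 0.09, limma, adjusted p = 0.0329), against a background of 15.8% of genes called, 6.46% higher and 9.30% lower. By single time, the AHK4 effect was −1.19 at ZT17 and −2.09 at ZT21. At ZT1, ZT5, ZT9 and ZT13 it was −1.67, −0.43, −0.997 and −1.75. The AHP2 effect was −0.27 and −0.13 in the dark, and −0.22, 0.40, 0.008 and 0.17 in the light. Neither gene was thus lower at both dark times than at every light time. None of the 9 was called higher at night. At an unadjusted p of 0.05, AHK3 was higher (0.27 ± 0.11, limma; background 13.8%), and AHP3 was lower (−0.33 ± 0.12, limma) beside AHK4 and AHP2 (background 16.1%). AHK4 was at −0.33 without replicate 1 and −0.45 without replicate 3, and AHP2 at −0.17 without replicate 2 and −0.30 without replicate 3, none of which was called. AHK4 was also not called after rescaling (−0.39) or without the 4 libraries with AT2G01021 (−0.33).

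Downstream of the relay, type-A response regulators fell. Of 10 type-A genes, 8 were tested and 7 fell (median age effect −1.41, against 0.39 for all genes), while 0 rose (limma; ARR16, at −0.20, was the 1 not called). ARR6 went from 23.3 ± 14.3 to 1.29 ± 1.69 FPKM, ARR7 from 36.5 ± 21.9 to 4.59 ± 4.13 FPKM and ARR9 from 26.8 ± 9.33 to 8.28 ± 5.12 FPKM (SD, n = 18). Counts in the lists that follow are to be read against the shares of all genes, 64.5% higher and 23.2% lower as deposited and 42.5% and 38.4% after rescaling. Type-B genes were split, with 4 higher and 2 lower of 6 tested (of 11), and 3 and 3 after rescaling, near those shares. ARR2 (0.97), ARR10 (0.87) and ARR1 (0.71), activators of cytokinin response genes, rose under both scalings.

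Of the 11 CRF genes other than CRF6, 8 were tested, with 5 higher and 1 lower, and 4 higher and 1 lower after rescaling. Here too the split is near that of all genes. CRF7 (1.29 ± 0.10) and CRF8 (1.13 ± 0.05) rose and CRF2 (−1.51 ± 0.08) fell, so the age effect of CRF6 was the highest of the family as measured. Among inhibitors of the pathway, KMD2 rose by 2.12 ± 0.14 and KMD1 by 1.09 ± 0.15, while KMD4 fell by 0.23 on the log2 scale, and it was not called lower without replicate 2. These are F-box proteins that direct type-B response regulators to degradation. The pseudo-phosphotransfer protein AHP6, an inhibitor of the relay, was listed at 0 in all libraries. Of the histidine kinases that are not cytokinin receptors, AHK1, a proposed osmosensor, was the 1 of 3 tested (−0.15 ± 0.05, called lower, and not without replicate 2).

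**Figure D5:**
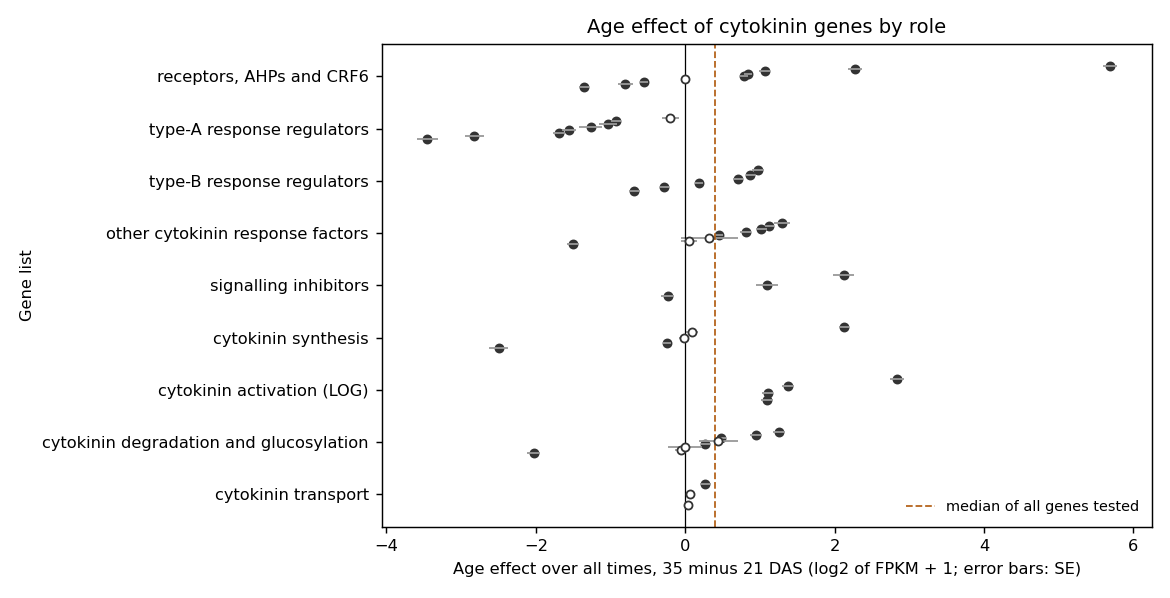
Age effect over all times, 35 minus 21 DAS in log2(FPKM + 1), of each tested gene of the cytokinin lists: error bars are the SE, filled points passed the limma test, and the dashed line is the median of all genes tested (0.39). Type-A response regulators lie at or below −0.20, LOG genes lie at or above 1.09, and AHP4 has the highest value of all lists shown, at 5.69.

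The genes of cytokinin supply moved in both directions. All 4 of the tested LOG genes (of 8), whose enzymes release the active hormone from its nucleotides, rose (median 1.24, against 0.39 for all genes, of which 64.5% rose). LOG7 went from 1.03 ± 0.416 to 13.5 ± 3.33 FPKM, LOG8 from 25.9 ± 6.29 to 57.6 ± 17.3 FPKM and LOG5 from 0.0400 ± 0.0484 to 2.27 ± 2.15 FPKM (SD, n = 18). LOG5, like IPT7 below, lay near 0 in the younger leaves and passed the filter only through the older ones. A call for LOG5 or IPT7 could thus only be higher, and the count and median of the LOG genes include LOG5. The age effects of LOG1, LOG7 and LOG8 were 1.09, 2.83 and 1.10. Of the IPT and CYP735A synthesis genes, 5 of 8 were tested. IPT3 fell from 39.1 ± 13.9 to 6.70 ± 4.16 FPKM, IPT7 rose from 0.168 ± 0.146 to 4.36 ± 1.88 FPKM, and IPT1 fell by 0.24 on the log2 scale, while after rescaling 4 of the 5 were called lower. Of 8 tested genes of degradation and glucosylation (of 10), 4 rose and 1 fell, and 2 rose and 3 fell after rescaling, shares that do not stand out from those of all genes. The cytokinin oxidases CKX1 (1.26 ± 0.08) and CKX5 (0.95 ± 0.08) rose and the glucosyltransferase UGT76C2 (−2.03 ± 0.08) fell. Of 3 tested transporters (of 4), ENT3 was called higher (0.27), was not called without replicate 1, and 2 were called lower and 0 higher after rescaling.

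Markers of leaf condition and cell type are given beside the shares of all genes, 64.5% higher and 23.2% lower. Of 5 senescence genes, 4 were tested and 4 rose, with SAG13, ORE1 and NAP leading (4.46, 3.68 and 3.15), and the list summed to 14.6 to 68.2 FPKM at 21 DAS and 103 to 579.7 FPKM at 35 DAS. Of 6 xylem markers 6 fell, and their sum ran from 26.1 to 51.3 FPKM at 21 DAS and from 1.69 to 19.3 FPKM at 35 DAS. Of 5 guard cell markers 5 fell, of 3 tested epidermis markers 2 fell, and of 4 mesophyll markers 4 fell. Of 3 tested root markers, PYK10 rose from 0.113 to 1.79 FPKM on average (1.12 ± 0.18), and SCR and SHR were not called as deposited and were called lower after rescaling. Phloem markers were split, 2 higher and 4 lower (1 and 4 after rescaling), with overlapping sums of 699 to 1440.3 FPKM and 584 to 1441 FPKM. The part of cell composition in the changes of the receptors, the relay and CRF6 was not tested.

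For each of the 9 genes, the genes with the most similar profile over the 12 group means were ranked by Pearson's r on log2(FPKM + 1), among 13466 genes with a mean of at least 5 FPKM. The 12 points share libraries and scaling and mostly reflect the difference between ages, so r is given as a description. AHP4 was followed by AT1G09480 and LOG7 (r = 0.99 for both), LOG7 being the cytokinin-activating gene described above. AHK3 was followed by the phosphatidylinositol kinase gene PI-4KBETA1 and WRKY19 (r = 0.99 for both), and CRF6 by AT4G23910 and AT3G46668 (r = 0.99 for both). AHP3 was followed by p24delta5 and the abscisic acid receptor gene RCAR1 (r = 0.98 for both), and AHP5 by IVD and NAD-ME1 (r = 0.98 for both), a dehydrogenase of leucine breakdown and a mitochondrial malic enzyme.

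Of the genes that fell, AHP1 was followed by AT3G26960 and AT5G14460 (r = 0.97 for both), AHK4 by the ascorbate-recycling gene MDAR6 (r = 0.96) and OVA5 (r = 0.95), and AHK2 by the beta-galactosidase gene BGAL1 and AT1G78830 (r = 0.95 for both). AHP2 had the least close neighbours, AT3G59940 (r = 0.89), which is the inhibitor gene KMD4, and AT3G50270 (r = 0.88).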

How the data were processed

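RNA from rosette leaves was sequenced in 36 libraries on an Illumina NovaSeq6000 after TruSeq library preparation, per the labels' protocols. Per the submitters' processing notes, the tools were STAR 2.3.0e, HTSeq and edgeR 3.12.1 with the TAIR10 build. The authors deposited FPKM per transcript (41342 transcripts of 33279 loci), and the step from counts to FPKM is not given in the sources used here. The table also has 36 unnamed empty columns, and 0 columns of other samples.

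FPKM were summed per locus. Genes with at least 1 FPKM in at least 3 libraries were kept. The 12 group means of log2(FPKM + 1) were fitted in limma 3.58.1 (R 4.3.3; eBayes with a mean-variance trend), and p-values were Benjamini-Hochberg adjusted over all 18729 genes. The added 1 understates changes of low genes. Shares within a family were tested by 100000 permutations of ages within times (Python 3.11.15, numpy 2.4.6). The scripts were tested on simulated data. The genes and lists were chosen with earlier results of these data known. Named besides the 9 genes are, per list, up to 3 called genes with the largest absolute age effect, the 2 genes most similar to each of the 9, and overlapping loci. Named outside this rule, after their values were seen, are CRF5, CRF10, ARR16, AHP6, AP1, AP3, WOX5, SCR, SHR and AT2G01021. The file lists marker GC1 as GASA9 and the transporter ENT8 as ETN8.

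No pair of libraries was identical. The depth of the libraries is unknown, so no counting interval is given. Of 31096 low values in 1704 genes, 68.1% lay within 0.1 of a whole step, against 20% for even values. The steps were fitted to these same values, so these shares cannot be compared directly. Whole reads were not recovered. Housekeeping genes, 5 of them checked, were at 0 in no library. Of 32815 loci compared with the RefSeq TAIR10.1 annotation, 32814 overlapped the locus of the same identifier. Alternatives were pseudocounts of 0.5 and 0.1, no filter, median-of-ratios rescaling (size factors 0.728 to 1.36), array weights, a replicate block, only the groups compared, each replicate number left out, and, chosen after seeing the data, the 4 libraries with AT2G01021 left out.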

Additional observations from a re-analysis of the deposited data

Results flagged for a closer look

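The age effect of 5 genes was called as differing between the 6 times of day, by a test of the difference itself. F was 12.3 for AHK4, 8.71 for AHK2, 5.74 for AHP2, 5.65 for AHP4 and 4.09 for AHK3. AHK4 fell most at ZT21 and least at ZT5, AHK2 fell most at ZT17 and was not called at ZT5, and AHK3 rose least at ZT13. AHP4 rose least at ZT13, and AHP2 was called higher at ZT5 and lower at ZT17. For AHP4 the test rests in part on values near 0 in the younger leaves, so it does not settle a difference between times.

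The age effect at night differed from that by day for AHK4, by −0.43 log2 units, and for AHP2, by −0.29 log2 units. For AHK4 this call was lost under most of the alternatives tried. The age effect of AHK4 at ZT17 (−1.19) was smaller in size than at ZT1 (−1.67) and ZT13 (−1.75).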

How the results depend on the processing

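The calls of the 9 genes over all times were the same under every alternative run, except that AHP2 became lower after rescaling. The shares of AHK3 (20.5 to 21.4 points more at 35 DAS) and AHP4 (28.6 to 30.2 points more) kept their calls without each replicate number. With only the first transcript of each locus the share of AHP4 changed by −0.0727 points (permutation p = 0.25), because AHP4 reads were assigned to its second transcript. Rescaling turned AHP2 at ZT5 (−0.014), at ZT9 (−0.46, called) and at ZT13 (from 0.17 to −0.07, not called).

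Counts moved as follows. At ZT1 1 gene was lower, in place of 3, with only the groups compared. At ZT5 3 were higher and 3 lower after rescaling, and 2 lower without the 4 libraries with AT2G01021, in place of 6 and 1. At ZT21 4 were lower after rescaling, in place of 2. For night minus day, 1 was higher with array weights, in place of 0, and 1 was lower, in place of 2, with either pseudocount, no filter, rescaling, the replicate block, and without the 4 libraries. Rhythms were called in 3 genes at 21 DAS with a pseudocount of 0.1, and in 1 at 35 DAS after rescaling or with array weights. Time of day at 35 DAS was called in 5 genes with only the groups compared, and the interaction in 8 with array weights. Apart from rescaling AHP2 and the first-transcript share, the cause was not tested.

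Leaving out each replicate number gave 1 to 2 genes lower at ZT1, 0 to 1 lower at ZT5, 0 to 1 lower at night, 1 to 2 rhythms at 21 DAS, 0 to 1 at 35 DAS, 3 to 8 time effects at 35 DAS, and 1 to 3 interactions. Batch numbers did not pair libraries: deviations from group means correlated at 0.00856 within a number (−0.473 to 0.582) and −0.00445 between numbers, and 14 of 36 libraries correlated best with their own number. The replicate block moved no other count past 1.5 times, and with it the time of day effect at 35 DAS was not called for AHK4 (limma adjusted p = 0.0551) and CRF6 (0.0521). Depth limits AHP4 at 21 DAS and AHK4 at 35 DAS, with medians of 0.250 and 1.23 FPKM.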

Other observations

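Several genes of the wider cytokinin pathway had age effects that differed between night and day. They were chosen after their values were seen, beside a background of 15.8% of all genes called. Of 8 tested type-A response regulators, the age effect was lower at night in 5 and higher in 0 (4 and 0 after rescaling). The largest difference was that of ARR7, at −2.25 ± 0.27 (SE), followed by ARR6, at −1.82 ± 0.30. LOG5 had a higher age effect at night, by 1.46 ± 0.17, and so had CRF5, by 0.79 ± 0.15. UGT76C2, a cytokinin glucosyltransferase, had a lower one, by −0.98 ± 0.18, and CRF10 as well, by −0.54 ± 0.12. LOG5 lay near 0 at 21 DAS (mean 0.0400 FPKM) and passed the filter only through 35 DAS. Its value thus reflects the night and day levels at 35 DAS and not a difference between 2 daily profiles. Of 6 tested type-B response regulators, 0 were called in either direction (limma).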
